A study of Mus musculus with 12 samples.

Results

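The genes described here are 10 genes of the glucocorticoid response in mouse skin, out of 52636 genes in a table of RNA-seq read counts. They comprised 8 genes known to be induced by glucocorticoids (*Fkbp5*, *Ddit4*, *Tsc22d3*, *Zbtb16*, *Sgk1*, *Klf9*, *Errfi1* and *Angptl4*), the gene of the receptor (*Nr3c1*) and the gene of the enzyme that activates the hormone inside the cell (*Hsd11b1*). *Fkbp5* was the gene around which the set was built, and the other 9 genes were added by symbol from general knowledge of the response. These 9 were chosen with earlier results of these data known. *Fkbp5* had been selected on its high read counts in the skin of *Cdc42* KO mice given ZnO NPs, and *Ddit4* was known from earlier results of these data to be high there too. Their values in that skin against KO skin and against WT skin given ZnO NPs, and in the interaction, are therefore given as a description with no test. All 10 genes passed the filter on low counts, which left 18822 genes for testing.

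Skin of C57BL/6 mice aged 3 months was sequenced on day 14 in 4 groups of 3 mice. The KO mice carried floxed *Cdc42* with Cre under the K5 proximal promoter, which acts in keratinocytes, and the WT mice carried floxed *Cdc42* on one or both alleles but no Cre. WT and KO mice received the vehicle, normal saline with hydroxypropyl methylcellulose (HPMC), on shaved dorsal skin, and the WT+ZnO NPs mice and the KO+ZnO NPs mice received ZnO NPs in this vehicle at 2 mg/cm². ZnO NPs are zinc oxide nanoparticles, the mineral ultraviolet filter of sunscreens, and loss of *Cdc42* from keratinocytes is used as a model of a damaged skin barrier. The samples were whole skin, so a lower level of a transcript can mean fewer cells of a type or less RNA per cell, and these cannot be told apart.

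Glucocorticoids reach the skin from the adrenal gland and are also made and reactivated locally. The enzyme encoded by *Hsd11b1* turns the inactive 11-keto steroid into active corticosterone, which binds the receptor encoded by *Nr3c1*. Before it binds hormone, the receptor is held by chaperones and immunophilins, and with hormone it moves to the nucleus and binds response elements made of a pair of short inverted repeats. *Fkbp5* encodes FKBP51, an immunophilin that lowers the affinity of the receptor for hormone, so its induction is a negative feedback. In skin, glucocorticoids restrain inflammation and keratinocyte proliferation, and long exposure thins the epidermis and the dermis.

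The promoter windows are shown because these genes are grouped by a transcription factor, and they show which windows hold its letters near the start site. The windows run from 250 bases before to 50 bases after an annotated RefSeq start on GRCm38.p6. Windows were given for 7 of the 10 genes, with several starts for some. Those printed are *Fkbp5* (chr17:28486100-28486399, minus strand), *Ddit4* (chr10:59951721-59952020, minus strand), the second of 3 windows of *Tsc22d3* (chrX:140600473-140600772, minus strand) and the fifth of 6 windows of *Sgk1* (chr10:21993640-21993939, plus strand), each from 5′ to 3′ on the strand of the gene. Capitals mark the repeat unit AGAACA, or TGTTCT on the other strand, and the palindrome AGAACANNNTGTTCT, which contains the unit on each strand.
Fkbp5: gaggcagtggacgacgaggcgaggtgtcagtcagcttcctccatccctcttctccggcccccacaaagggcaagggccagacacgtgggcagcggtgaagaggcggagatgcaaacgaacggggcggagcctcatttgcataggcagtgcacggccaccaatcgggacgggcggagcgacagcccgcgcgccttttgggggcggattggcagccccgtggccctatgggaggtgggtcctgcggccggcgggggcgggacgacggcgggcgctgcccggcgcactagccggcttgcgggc
Ddit4: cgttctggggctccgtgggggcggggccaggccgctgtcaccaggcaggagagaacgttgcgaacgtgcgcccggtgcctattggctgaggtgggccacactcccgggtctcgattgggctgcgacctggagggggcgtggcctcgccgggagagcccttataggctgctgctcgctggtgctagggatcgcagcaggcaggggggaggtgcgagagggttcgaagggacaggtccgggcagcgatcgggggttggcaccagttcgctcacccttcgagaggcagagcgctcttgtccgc
Tsc22d3: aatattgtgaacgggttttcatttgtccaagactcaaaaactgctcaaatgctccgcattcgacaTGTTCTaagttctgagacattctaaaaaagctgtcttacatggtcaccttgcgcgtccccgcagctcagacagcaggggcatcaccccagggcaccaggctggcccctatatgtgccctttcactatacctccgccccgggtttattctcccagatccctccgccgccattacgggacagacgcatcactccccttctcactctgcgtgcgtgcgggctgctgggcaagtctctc
Sgk1: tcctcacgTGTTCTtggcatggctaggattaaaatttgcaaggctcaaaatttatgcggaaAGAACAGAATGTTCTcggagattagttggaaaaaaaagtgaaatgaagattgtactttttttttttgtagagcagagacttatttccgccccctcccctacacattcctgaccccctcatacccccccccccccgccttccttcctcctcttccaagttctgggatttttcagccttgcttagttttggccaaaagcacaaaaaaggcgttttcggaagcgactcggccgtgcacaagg

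The fifth window of *Sgk1* held the exact palindrome, with its first base 189 bases before the start, and a further unit 242 bases before it. Of its other windows, the first and the fourth held 1 unit each, 195 and 13 bases before their starts, and the rest none. The second window of *Tsc22d3* held 1 unit, 185 bases before the start, and no palindrome, and its other windows held neither. No unit was found in the windows of *Fkbp5*, *Ddit4*, *Klf9*, *Errfi1* and *Hsd11b1*. Among all 32851 promoter windows of this length, 6233 (19.0%) held a unit and 3 (0.00913%) held the palindrome. A looser palindrome, GNACANNNTGTNC, occurred in 156 windows (0.475%), and among the windows of the 7 genes only in the same window of *Sgk1*. Such a match is a description of letters and no measured binding site, and absence covers only these 300 bases.

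Total counts lay between 21076320 and 28867802 per library, and levels are given in CPM, the share of a library's counts that fell on a gene, scaled by TMM factors. *Krt5*, *Krt14* and *Krt15* of basal keratinocytes summed to 3832 to 11023 CPM over the 12 libraries, all labelled skin. *Cdc42* was measured as a check of the labels and was at 617 ± 11.2 CPM in WT (SD, n = 3), 439.7 ± 24.3 in KO, 326.1 ± 21.1 in WT+ZnO NPs and 377.2 ± 70.5 in KO+ZnO NPs. A WT label is thus at odds with *Cdc42* in the WT+ZnO NPs group, which lay below KO, and the groups with ZnO NPs overlapped, so WT+ZnO NPs and KO+ZnO NPs stand below for the libraries labelled so. Y-linked transcripts were present, at a sum of 215 to 245 CPM, in the 3 WT+ZnO NPs libraries, in KO replicate 1 and in the KO+ZnO NPs replicate 1, whereas the study's methods name the KO mice as female. *Xist* was at 413 to 1050 CPM in the 7 libraries without them. The Y-linked class and the change from WT to WT+ZnO NPs cannot be told apart, and values with this class as a covariate are given beside each call of the 10 genes that they altered. Differences were tested in edgeR with its quasi-likelihood F test, p was adjusted over all genes tested by the method of Benjamini and Hochberg, and a gene is named as called when that adjusted p was under 0.05.

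*Fkbp5* was high in every library labelled KO+ZnO NPs and in none of the others. It lies on chromosome 17 of GRCm38 from 28399094 to 28517527. Its levels were 152.3, 77.8 and 106.9 CPM in WT, 74.8, 94.6 and 73.9 in WT+ZnO NPs, 174.9, 155.1 and 83.8 in KO and 342.3, 345.2 and 343.1 in KO+ZnO NPs. Each of the latter libraries lay above all 9 others, and the highest of those 9 was KO replicate 1. The order of the group means was WT+ZnO NPs (81.1 ± 11.7 CPM), WT (112.3 ± 37.6), KO (137.9 ± 47.9) and KO+ZnO NPs (343.5 ± 1.5; SD, n = 3). WT+ZnO NPs overlapped WT, and WT overlapped KO, so these neighbours did not differ beyond their spread. The fitted log2 fold change was 1.32 (SE 0.28) against KO, 2.08 (SE 0.29) against WT+ZnO NPs and 1.79 (SE 0.40) for the interaction, which is the change with ZnO NPs in KO minus that in WT. On those 3 values, which are those the gene was selected on, no test is given. Taken within each Y-linked class and averaged, the value against KO was 1.25 (SE 0.30), and with the Y-linked class as a covariate it was 1.34 (SE 0.29). In the comparisons that did not enter the selection, *Fkbp5* passed no test, with a log2 fold change of 0.30 (SE 0.28, adjusted p = 0.553) in KO against WT and of -0.47 (SE 0.28, adjusted p = 0.196) in WT+ZnO NPs against WT.

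**Figure D1:**
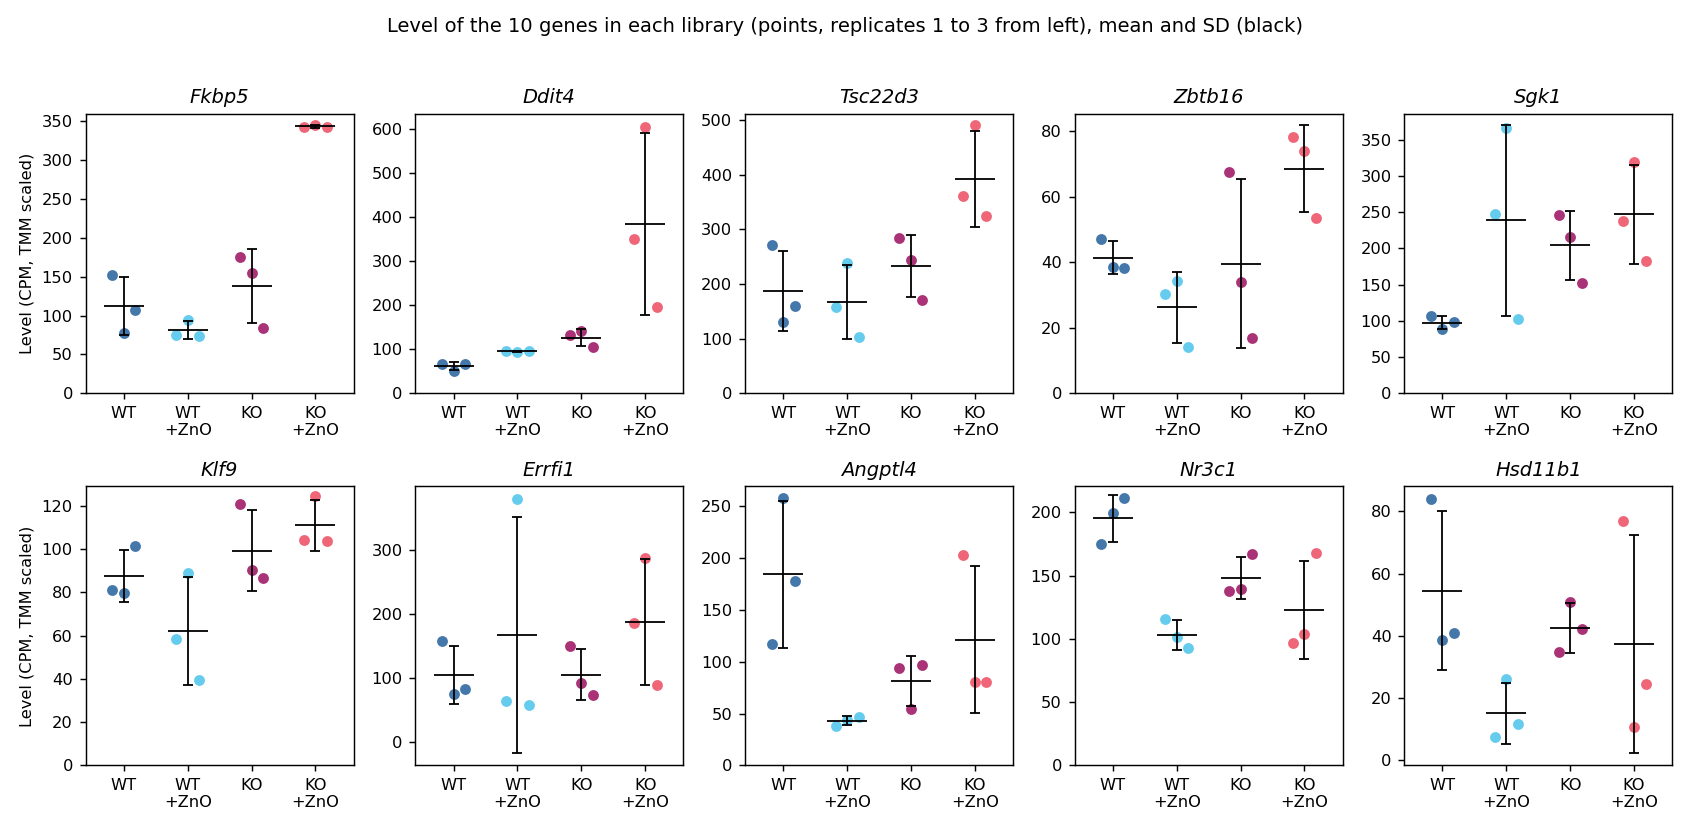
Level of each of the 10 genes (vertical axes, CPM scaled by TMM factors, linear) in the 12 libraries, by group. Points are single libraries, replicates 1 to 3 from left to right in each group, and black bars are the mean and SD (n = 3). The KO+ZnO NPs libraries of *Fkbp5* sit between 342.3 and 345.2 CPM, above all other libraries, and the WT+ZnO NPs libraries of *Angptl4* sit between 37.9 and 46.5 CPM, below all WT libraries.

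*Ddit4* encodes REDD1, an inhibitor of mTORC1 signalling that responds to glucocorticoids as well as to hypoxia, amino acid shortage and DNA damage. On chromosome 10 (59949669 to 59951834), it was counted at 65.9, 50.9 and 67.6 CPM in WT, 95.9, 94.4 and 95.3 in WT+ZnO NPs, 132.5, 141.8 and 106.1 in KO and 350.2, 606.3 and 196.2 in KO+ZnO NPs. The 4 groups did not overlap, in the order WT, WT+ZnO NPs, KO and KO+ZnO NPs, and the spread was widest in the last. Without a test, the log2 fold change of KO+ZnO NPs was 1.60 (SE 0.32) against KO and 2.01 (SE 0.33) against WT+ZnO NPs, and the interaction was 0.97 (SE 0.45). Without the KO+ZnO NPs replicate 2, the highest of all, these values were 1.13 (SE 0.23), 1.51 (SE 0.23) and 0.46 (SE 0.31). In KO against WT, *Ddit4* was at a log2 fold change of 1.04 (SE 0.32), which did not pass the test (adjusted p = 0.0675) but did so in 4 of 21 alternatives, with an adjusted p of 0.0102 to 0.227 over them. The value in WT+ZnO NPs against WT was 0.63 (SE 0.32, adjusted p = 0.128), and it passed in 3 of 20 alternatives. Lists of hypoxia and stress genes were read beside it. At the shares of all genes called in KO+ZnO NPs against KO (6.57% higher and 8.09% lower), lists this short hold few calls. Of 13 hypoxia genes, edgeR called 0 in KO+ZnO NPs against KO, with 3 at an unadjusted p below 0.05 and 0 by DESeq2. Against WT+ZnO NPs, where 2.13% of all genes were called higher, 2 were called higher. These were *Slc2a1*, the glucose transporter GLUT1, at a log2 fold change of 1.65 (SE 0.38, adjusted p = 0.0473) and *Bnip3*, a mitophagy receptor, at 1.07 (SE 0.19, adjusted p = 0.0307). Of the 13, 8 had an unadjusted p below 0.05 there and DESeq2 called 4. Their median log2 fold change was 0.95, beside 0.04 over all genes. Of 10 genes of the integrated stress response, edgeR called 0 against KO, with 3 at an unadjusted p below 0.05 and 0 by DESeq2. Against WT+ZnO NPs, *Asns*, the asparagine synthetase, was higher at 0.76 (SE 0.16, adjusted p = 0.0396) and *Atf3*, a stress-induced transcription factor, was lower at -4.11 (SE 0.92, adjusted p = 0.0441). Of these 10 stress genes, 4 had an unadjusted p below 0.05 there and DESeq2 called 2, with a median log2 fold change of -0.40. For *Bnip3*, *Asns* and *Atf3* the WT+ZnO NPs libraries also stood apart from WT, at -1.16 (SE 0.19, adjusted p = 0.00103), -0.80 (SE 0.16, adjusted p = 0.003) and 3.50 (SE 0.89, adjusted p = 0.00972). *Bnip3* was at 102.7 CPM in KO+ZnO NPs and 109.3 CPM in WT, and *Asns* at 47 and 48.3 CPM. *Slc2a1* was at 235.5 CPM in KO+ZnO NPs, 144 in KO, 77.2 in WT and 74.8 in WT+ZnO NPs. In WT+ZnO NPs against WT, 0 hypoxia genes were called higher and 3 lower, and 2 stress genes higher and 2 lower (20.8% and 22.1% of all genes).

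*Tsc22d3* encodes GILZ, a leucine zipper protein that carries much of the anti-inflammatory action of glucocorticoids. This X-linked gene (140539528 to 140600659) was measured at 270.5, 131.2 and 160.6 CPM in WT, 157.4, 238 and 103.4 in WT+ZnO NPs, 284.1, 244 and 170.6 in KO and 360.3, 490.7 and 323.9 in KO+ZnO NPs. All 3 KO+ZnO NPs libraries were above the other 9, and the other 3 groups overlapped. Its log2 fold change of KO+ZnO NPs was 1.24 (SE 0.35) against WT+ZnO NPs, with an adjusted p of 0.0711, and 0.75 (SE 0.35, adjusted p = 0.16) against KO. The first of these passed in DESeq2 (adjusted p = 0.0136) and in none of the other alternatives, whose highest adjusted p was 0.298.

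*Zbtb16* encodes PLZF, a zinc finger repressor that is among the most strongly glucocorticoid-induced genes in many cell types. It is on chromosome 9 (48654297 to 48836222), and its counts gave 47.1, 38.5 and 38.3 CPM in WT, 30.2, 34.4 and 14.2 in WT+ZnO NPs, 67.5, 34 and 16.8 in KO and 78.2, 74 and 53.4 in KO+ZnO NPs. KO libraries ranged from below to above the whole WT group, and KO replicate 1 lay within the range of KO+ZnO NPs. Against WT+ZnO NPs, whose libraries were all below, the log2 fold change of KO+ZnO NPs was 1.39 (SE 0.45) with an adjusted p of 0.095. DESeq2 (adjusted p = 0.0275) called this difference, as did edgeR with the replicate number as a block (1.45, adjusted p = 0.048).

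*Klf9* encodes a Krüppel-like factor of the keratinocyte differentiation program that glucocorticoids induce directly. The gene, on chromosome 19 from 23141226 to 23168134, varied least of the 8 targets, 3.14-fold between the lowest and the highest library. It stood at 81.2, 79.9 and 101.2 CPM in WT, 58.2, 89.1 and 39.7 in WT+ZnO NPs, 120.8, 90.3 and 86.5 in KO and 104.3, 124.6 and 103.9 in KO+ZnO NPs. The KO+ZnO NPs libraries were all above the WT+ZnO NPs libraries, at a log2 fold change of 0.83 (SE 0.25, adjusted p = 0.0847). This difference was called in DESeq2 (adjusted p = 0.0391) and without the WT+ZnO NPs replicate 2, the highest of its group (1.18, SE 0.22, adjusted p = 0.0362).

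*Sgk1* encodes a serum- and glucocorticoid-regulated kinase of ion transport and cell survival, and 1 of its 6 promoter windows is the one with the palindrome above. It lies on chromosome 10 from 21882184 to 21999903 and showed 106.1, 88.5 and 98.4 CPM in WT, 247.9, 366 and 103.1 in WT+ZnO NPs, 245.8, 215.3 and 152.2 in KO and 237.9, 319.4 and 182.7 in KO+ZnO NPs. WT was tight and low, and 8 of the 9 other libraries lay above it, the exception being the WT+ZnO NPs replicate 3. *Sgk1* rose in WT+ZnO NPs against WT, at a log2 fold change of 1.29 (SE 0.38, adjusted p = 0.0199), with 2 of 3 libraries above the WT range. That call was lost with the Y-linked class as a covariate (1.11, SE 0.58, adjusted p = 0.195), and without WT replicate 2 (adjusted p = 0.069), WT replicate 3 (adjusted p = 0.0565) or the WT+ZnO NPs replicate 2 (0.84, SE 0.35, adjusted p = 0.0862). KO and WT did not overlap, and the log2 fold change of 1.07 (SE 0.38) between them did not pass (adjusted p = 0.109). KO+ZnO NPs differed from WT+ZnO NPs by 0.05 (SE 0.38, adjusted p = 0.957), a sign that turned with scaling by library size only (-0.10). *Sgk1* is also induced by serum, and the immediate early gene *Fos*, chosen after its values were seen, was at 1312, 2051 and 480.4 CPM in the WT+ZnO NPs libraries against 38.2 to 95.1 in WT, where *Sgk1* had the same order of replicates 1 to 3 in WT+ZnO NPs. *Fos* was at 40.6 to 280.2 CPM in KO and 17.9 to 131.7 CPM in KO+ZnO NPs, both overlapping WT, while *Sgk1* there was above all WT libraries. *Egr1*, another immediate early gene chosen in the same way, was at 31.2 to 65.2 CPM in WT, 361.4 to 1460 in WT+ZnO NPs, 73.9 to 243.5 in KO and 71.8 to 219.3 in KO+ZnO NPs, so that its libraries of the last 3 groups were all above WT. The part of this in the *Sgk1* result was not tested.

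*Errfi1* encodes MIG6, a feedback inhibitor of the EGF receptor. It had the widest spread within groups of the 10 genes, with a pooled SD of 0.96 on the log2 scale. Its levels on chromosome 4 (150853919 to 150868892) were 156.9, 74.2 and 83.1 CPM in WT, 63.7, 378.8 and 58.1 in WT+ZnO NPs, 149.5, 92.8 and 73.4 in KO and 185.4, 286.6 and 89 in KO+ZnO NPs. The WT+ZnO NPs replicate 2 was the highest of all libraries and replicate 3 of that group the lowest, and the 4 groups overlapped in every pair. No difference passed the test in any comparison or alternative, and without single libraries the log2 fold change in WT+ZnO NPs against WT ranged from -0.78 to 1.08.

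*Angptl4* encodes a secreted inhibitor of lipoprotein lipase that is induced by glucocorticoids, by fasting through PPAR factors and by hypoxia. Located on chromosome 17 from 33773750 to 33781830, it was at 116.7, 257.8 and 178.1 CPM in WT, 37.9, 44.2 and 46.5 in WT+ZnO NPs, 93.4, 53.9 and 96.6 in KO and 202.7, 80.1 and 80.7 in KO+ZnO NPs. WT was above WT+ZnO NPs and above KO with no overlap, and the KO+ZnO NPs replicate 1 was within the WT range. *Angptl4* fell in WT+ZnO NPs against WT, at a log2 fold change of -2.10 (SE 0.41, adjusted p = 0.00232), and the call was kept in 20 of 20 alternatives, with an adjusted p of 2.07e-06 to 0.0108. Between KO and WT, the value of -1.18 (SE 0.40, adjusted p = 0.0907) did not pass, though it did in 3 of 21 alternatives, among them the Y-linked class as a covariate (-1.45, SE 0.34, adjusted p = 0.0385). The interaction was 2.68 (SE 0.56, adjusted p = 0.0212), so that the fall with ZnO NPs among the WT labels was not seen among the KO labels, where the log2 fold change was 0.58 (SE 0.39, adjusted p = 0.335). The interaction was called in 17 of 19 alternatives, and not without WT replicate 2 (2.36, SE 0.56, adjusted p = 0.0588) or without the WT+ZnO NPs replicate 3 (2.74, SE 0.64, adjusted p = 0.0538).

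*Nr3c1*, the receptor gene on chromosome 18 (39410545 to 39519421), was the steadiest of the 10, with a pooled SD within groups of 0.25 on the log2 scale. Its counts were equal to 174.8, 199.4 and 211.8 CPM in WT, 115.9, 101.3 and 92.8 in WT+ZnO NPs, 137.5, 139.1 and 167 in KO and 96.9, 103.9 and 167.7 in KO+ZnO NPs. WT held the 3 highest levels of all libraries. The receptor transcript fell in WT+ZnO NPs against WT, at a log2 fold change of -0.92 (SE 0.20, adjusted p = 0.00432), and kept its call in 19 of 20 alternatives. It was lost with the Y-linked class as a covariate (-0.60, SE 0.27, adjusted p = 0.141). KO libraries were also all below WT, with a log2 fold change of -0.40 (SE 0.20, adjusted p = 0.231) that was called in 0 of 21 alternatives, DESeq2 among them.

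*Hsd11b1*, which codes for the activating enzyme, is on chromosome 1 from 193221634 to 193264075. It was detected at 84, 38.5 and 40.9 CPM in WT, 7.32, 26.1 and 11.6 in WT+ZnO NPs, 34.7, 50.7 and 42 in KO and 77, 10.7 and 24.3 in KO+ZnO NPs. WT+ZnO NPs lay below WT and below KO without overlap, while KO+ZnO NPs spanned nearly the whole range. The fall in WT+ZnO NPs against WT was -1.86 on the log2 scale (SE 0.67, adjusted p = 0.0438) and was called in 9 of 20 alternatives. Without WT replicate 1, the highest of its group, it was -1.41 (SE 0.70, adjusted p = 0.146). With the Y-linked class as a covariate it was -2.91 (SE 0.91, adjusted p = 0.0481).

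Cell type markers moved with these falls, and their part in them was not tested. Of 5 adipocyte markers, 4 were called lower and none higher in WT+ZnO NPs against WT, and their summed level was 637.1 to 1379 CPM against 4501 to 6458 CPM in WT. KO (1551 to 3139 CPM) lay between, KO+ZnO NPs (1042 to 3795 CPM) overlapped WT+ZnO NPs, and none of the 5 adipocyte markers was at 0 in all libraries of a group. In the same comparison, 3 of 3 macrophage markers (44.4 to 85.5 against 842.9 to 1032 CPM), 3 of 3 endothelial markers (76.6 to 183.7 against 414.8 to 442.2 CPM) and 3 of 3 suprabasal keratinocyte markers (854.2 to 1229 against 3806 to 6744 CPM) were called lower. Hair follicle keratins summed to 0.175 to 1.09 CPM in WT but to 436.6 to 3372 CPM in WT+ZnO NPs, with 3 of 3 called higher. KO (2.57 to 7005 CPM) and KO+ZnO NPs (124.5 to 5084 CPM) also held them. In KO against WT, 3 of 3 hair follicle and 2 of 4 melanocyte markers were called higher, and 1 of 5 tested skeletal muscle markers lower. The part of these markers in the calls of KO against WT for genes of the lists was not tested. In WT+ZnO NPs against WT, 4 of 4 melanocyte and 2 of 3 basal keratinocyte markers were called higher too. Mast cell markers had 2 of 3 called lower there (33.9 to 65.4 against 141.9 to 279 CPM), fibroblast markers had 1 of 4 higher and 2 lower, and sebocyte markers had 1 of 3 higher. Macrophage markers were also lower in KO+ZnO NPs (66.6 to 156.3 CPM) than in KO (383 to 740.8 CPM), with 3 of 3 called, as were 3 of 3 T cell markers and 1 of 4 fibroblast markers. Sebocyte markers were higher in KO+ZnO NPs (143.4 to 453.3 CPM) than in KO (23.2 to 71.2 CPM), with 2 of 3 called, and 1 of 5 tested skeletal muscle markers was also higher there. Skeletal muscle, which also expresses *Fkbp5*, had markers that summed to 2178 to 11841 CPM in KO+ZnO NPs and 3707 to 17887 CPM in WT+ZnO NPs. They summed to 4001 to 5571 CPM in WT and 959.4 to 3391 CPM in KO, where *Tnnc2* of this list was at 0 in all 3 libraries. The part of muscle in the *Fkbp5* levels was not tested. In KO+ZnO NPs against WT+ZnO NPs, 1 of 3 suprabasal keratinocyte and 1 of 3 endothelial markers were called higher, and no marker of the other lists was called.

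**Figure D2:**
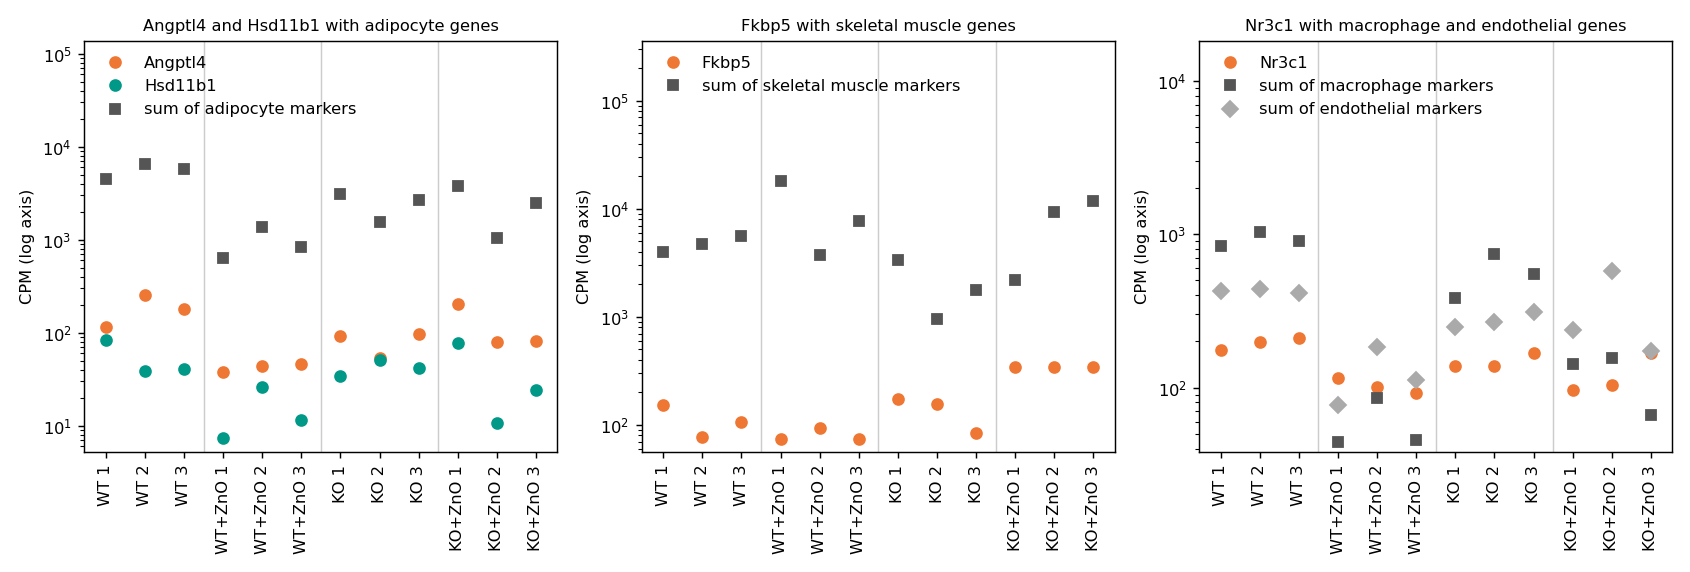
Levels of 4 of the genes and summed levels of marker genes (vertical axes, CPM on a log scale) in the 12 libraries (horizontal axis), with grey lines between groups. Left, *Angptl4* and *Hsd11b1* with 5 adipocyte markers, which are lowest in WT+ZnO NPs (637.1 to 1379 CPM). Middle, *Fkbp5* with 6 skeletal muscle markers, which spread from 2178 to 11841 CPM in KO+ZnO NPs. Right, *Nr3c1* with 3 macrophage and 3 endothelial markers.

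Counted over the set, the shares called were read against those of all 18822 genes. In KO against WT, 0 of 10 genes were called by edgeR, where 4.61% of all genes were called higher and 3.58% lower. At an unadjusted p below 0.05 there were 3 (*Sgk1*, *Ddit4* and *Angptl4*), and DESeq2 called 2. WT+ZnO NPs against WT had 1 gene called higher and 3 lower, with a background of 20.8% and 22.1%, so this comparison moved a large share of all genes. For KO+ZnO NPs against KO, where 6.57% were called higher and 8.09% lower over all genes, 0 of the 8 genes open to a test were called, 0 had an unadjusted p below 0.05 and DESeq2 called 0. For KO+ZnO NPs against WT+ZnO NPs, edgeR called 0 of these 8 against a background of 2.13% higher and 1.16% lower. There, 4 had an unadjusted p below 0.05 (*Tsc22d3*, *Angptl4*, *Klf9* and *Zbtb16*), and DESeq2 called the same 4. Shares of all genes at an unadjusted p below 0.05 or called by DESeq2 are not given, so such counts have no background to be read against. For the interaction, 1 of the 8 (*Angptl4*) was called higher and 0 lower, against 5.08% and 3.59%. Without *Fkbp5* and *Ddit4*, the median log2 fold change in KO+ZnO NPs against WT+ZnO NPs was 1.03, beside 0.04 over all genes. The value was above 0 for 8 of 8 genes, beside 53.5% of all genes. Those of *Sgk1* (0.05), *Errfi1* (0.16) and *Nr3c1* (0.25) turned below 0 in some alternatives. The median was 0.42 beside 0.01 against KO (6 of 8 above 0). With all 10 genes it was 0.09 beside 0.01 in KO against WT (6 of 10) and -0.48 beside 0.06 in WT+ZnO NPs against WT (3 of 10). The first 2 of these comparisons share the KO+ZnO NPs libraries, and the first and the last share the WT+ZnO NPs libraries with opposite sign. Mean levels of *Angptl4* (121.1 CPM), *Nr3c1* (122.8) and *Hsd11b1* (37.3) in KO+ZnO NPs were below those in WT (184.2, 195.3 and 54.5). Those of *Tsc22d3*, *Zbtb16*, *Sgk1*, *Klf9* and *Errfi1* were above.

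**Figure D3:**
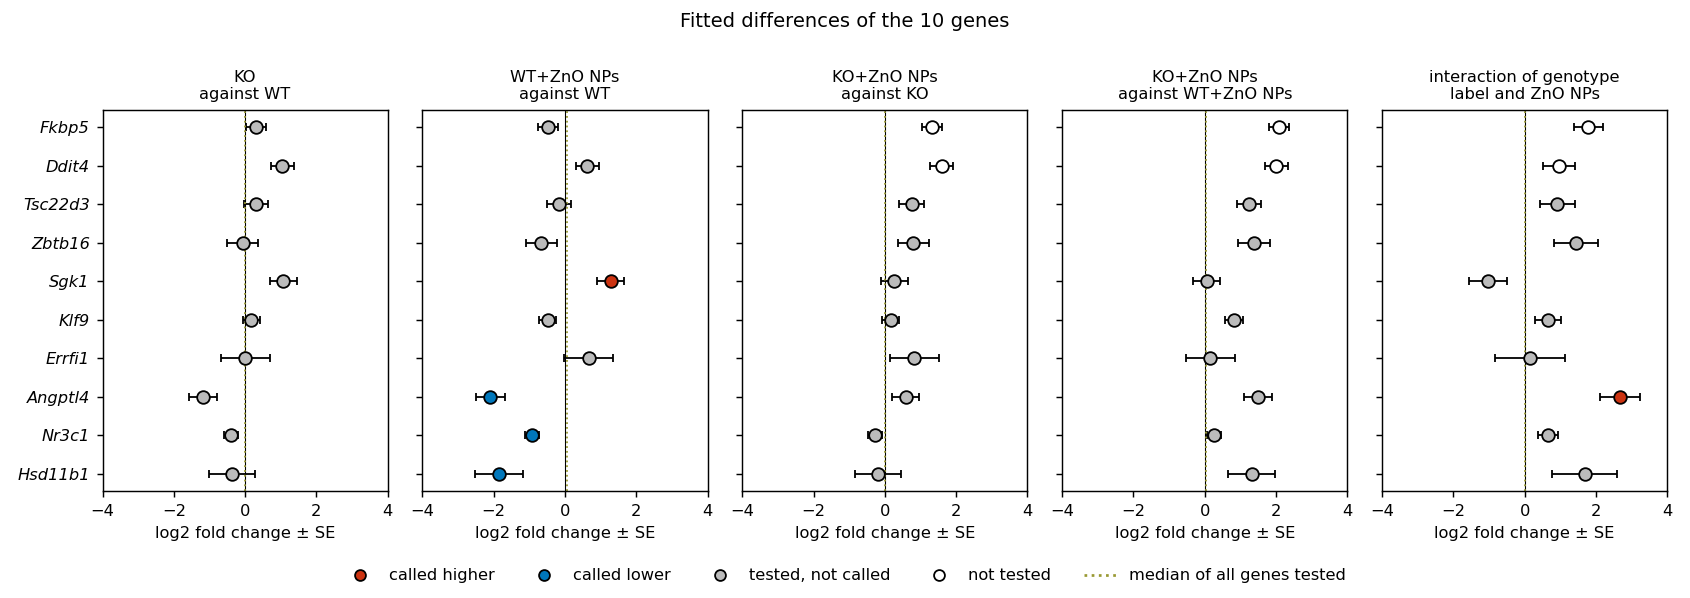
Fitted log2 fold change ± SE (horizontal axes) of the 10 genes (rows) in the 4 comparisons and the interaction. Filled red and blue points were called higher and lower, grey points were tested and not called, white points (*Fkbp5* and *Ddit4*) were not tested, and dotted lines are the median of all genes tested. In KO+ZnO NPs against WT+ZnO NPs the 8 tested points lie above 0, and in WT+ZnO NPs against WT *Sgk1* is red while *Angptl4*, *Nr3c1* and *Hsd11b1* are blue.

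Set per kilobase of exons (RPKM), *Angptl4* had the highest mean level of the set in WT with 52, followed by *Tsc22d3* with 43.2, *Ddit4* with 35, *Errfi1* with 29.2 and *Nr3c1* with 25.4. *Sgk1* (19.9), *Klf9* (18.2), *Hsd11b1* (12.8) and *Fkbp5* (11.9) came next, and *Zbtb16* (7.82) was lowest. The order was another in KO+ZnO NPs, where *Ddit4* (218.9) and *Tsc22d3* (90.2) were highest and *Fkbp5* was at 36.3. *Ddit4* also had the largest range, with an 11.9-fold difference between its highest and its lowest library, and *Nr3c1* the smallest with 2.28-fold. No exon of the 10 genes overlaps an exon of another annotated gene, though other genes overlap the spans of *Fkbp5*, *Klf9*, *Errfi1* and *Hsd11b1*. At most 0.684% of the 50-base stretches of their transcripts, in *Fkbp5*, occur in the transcripts of another gene.

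The pattern of *Fkbp5* was compared with that of 12366 protein-coding genes at 5 CPM or more, by the root mean square difference of centred log2 CPM over the 12 libraries. The most similar gene was *Tsc22d3*, with a difference of 0.38 against a median of 0.92 over all genes compared. Next came *Fam107a* (0.49), *Zbtb16* (0.50), *Lgals7* (0.51), an epithelial galectin, and *Ackr4* (0.52), a scavenging chemokine receptor. *Fam107a* was at 11.5, 23.8 and 6.84 CPM in KO+ZnO NPs and at 1.86 to 9.23 CPM in the other groups, so its lowest KO+ZnO NPs library lay inside that range. *Lgals7*, far more abundant, was at 4333, 6993 and 3191 CPM in KO+ZnO NPs and at 1911 to 3456 CPM in the other groups, which overlapped. Among the other genes of the set, *Ddit4* ranked 20 and *Klf9* 74, and *Sgk1* ranked 3002, *Errfi1* 3702, *Nr3c1* 8173, *Angptl4* 9416 and *Hsd11b1* 10614. These ranks share the libraries on which *Fkbp5* was selected and are a description only.

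Inside the groups, the targets tended to be high or low in the same library. Replicate 2 of WT+ZnO NPs was the highest for 6 of the 8 targets, as it was for 36.1% of all genes, and replicate 3 was the lowest for 6 of 8, as for 30.8% of all genes. KO replicate 1 was the highest for 6 of 8 (33.7% of all genes) and KO replicate 3 the lowest for 7 of 8 (31.9%). Replicate 2 of KO+ZnO NPs was the highest for 6 of 8 (37.3%) and replicate 3 the lowest for 6 of 8 (35.2%), and in WT replicate 1 was the highest for 5 of 8 (35.4%) and replicate 2 the lowest for 6 of 8 (34.8%). *Tsc22d3*, *Sgk1* and *Errfi1* were the highest of their group in WT replicate 1, in the WT+ZnO NPs replicate 2, in KO replicate 1 and in the KO+ZnO NPs replicate 2. *Ddit4* followed this order only in part, as it was the highest in WT replicate 3, the WT+ZnO NPs replicate 1 and KO replicate 2. Its WT+ZnO NPs libraries lay between 94.4 and 95.9 CPM. *Angptl4* did not share this order. It was the highest in WT replicate 2, in the WT+ZnO NPs replicate 3 and in KO replicate 3, where most other targets were the lowest. In KO replicate 1 it was nearly as high as in replicate 3 (0.25 and 0.30 above the group mean on the log2 scale), and in KO+ZnO NPs it was about equally low in replicates 2 and 3 (-0.45 and -0.44). *Fkbp5* followed the shared order in the other groups, while in KO+ZnO NPs its libraries differed by 0.437% (coefficient of variation), beside 53.9% for *Ddit4*, 22.4% for *Tsc22d3* and 52.9% for *Errfi1*. Of these 4 libraries with high targets, KO replicate 1 and the WT+ZnO NPs replicate 2 held Y-linked transcripts and WT replicate 1 and the KO+ZnO NPs replicate 2 did not.

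**Figure D4:**
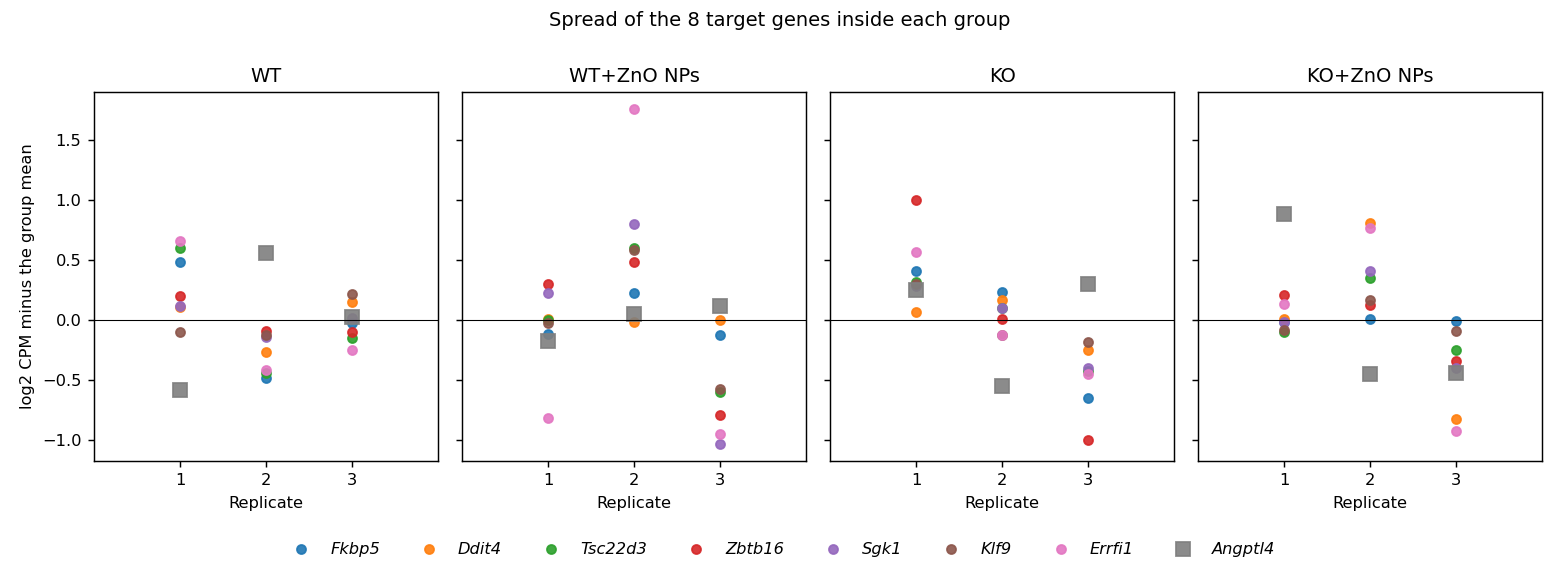
Log2 CPM minus the mean of the group (vertical axis) for the 8 target genes in replicates 1 to 3 (horizontal axis) of each group. Circles are 7 targets, and grey squares are *Angptl4*, which is above its group mean in WT replicate 2, the WT+ZnO NPs replicate 3 and KO replicate 3, where most circles lie below it.

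Other genes of the pathway were read from lists chosen by function, and each count is set against the shares of all genes called higher and lower, which were 4.61% and 3.58% in KO against WT, 20.8% and 22.1% in WT+ZnO NPs against WT, 6.57% and 8.09% in KO+ZnO NPs against KO and 2.13% and 1.16% in KO+ZnO NPs against WT+ZnO NPs. Of 25 further glucocorticoid-induced genes, 5 were called higher and 2 lower in KO+ZnO NPs against KO (6.57% and 8.09% of all genes), and 4 higher and 0 lower in KO+ZnO NPs against WT+ZnO NPs (2.13% and 1.16%). *Pdk4*, the kinase that turns off pyruvate dehydrogenase in fasting, rose in both, by a log2 fold change of 2.30 (SE 0.31, adjusted p = 0.00495) and 2.56 (SE 0.31, adjusted p = 0.0156). It was at 242.2, 332 and 377 CPM in KO+ZnO NPs, above the WT libraries with 206.3, 146.2 and 102.3 CPM and all the rest. *Sult1a1*, a sulfotransferase, was higher against WT+ZnO NPs at 1.66 (SE 0.14, adjusted p = 0.00286). Its mean was 54.8 CPM in KO+ZnO NPs, 50.4 in KO, 49.9 in WT and 17.3 in WT+ZnO NPs. *Anxa1* and *Glul*, also among these 4 and named after their values were seen, were lower in WT+ZnO NPs than in WT too (-1.40 and -1.32). *Mt1*, a metallothionein induced by zinc as well as by glucocorticoids, was higher against KO at 2.42 (SE 0.48, adjusted p = 0.0134). *Mt1* was also higher in WT+ZnO NPs than in WT, at 1.68 (SE 0.47, adjusted p = 0.0155). With ZnO NPs under the WT label, 7 of the 25 were higher and 8 lower, where 20.8% of all genes were called higher and 22.1% lower. The 2 largest changes there were falls of *Cd163*, a macrophage scavenger receptor, at -4.22 (SE 0.60, adjusted p = 0.000394), and *Lcn2*, lipocalin 2, at -3.79 (SE 0.71, adjusted p = 0.00198), beside the fall of all 3 macrophage markers. Beside the higher hair follicle markers (3 of 3 called), KO skin had *Cdkn1c*, a cyclin-dependent kinase inhibitor, higher than WT at 1.59 (SE 0.37, adjusted p = 0.0294) and *Pdk4* lower at -1.24 (SE 0.30, adjusted p = 0.0319). Skeletal muscle markers summed to 959.4 to 3391 CPM in KO and 4001 to 5571 CPM in WT (1 of 5 called lower). Their part in the fall of *Pdk4* was not tested.

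The chaperones and immunophilins that hold the receptor were the list with the largest share called higher in KO+ZnO NPs against KO, with 4 of 15 higher and 0 lower (6.57% and 8.09% of all genes). *Fkbp4*, whose product FKBP52 takes the place of FKBP51 on the receptor once hormone is bound, rose by 0.91 (SE 0.18, adjusted p = 0.0126), and *Ptges3*, the p23 co-chaperone, by 0.71 (SE 0.15, adjusted p = 0.0167). Against WT, WT+ZnO NPs had 7 of 15 higher and 1 lower (20.8% and 22.1% of all genes), with *Hspa1a*, an inducible HSP70, at 1.39 (SE 0.36, adjusted p = 0.0101) and *Fkbp4* at 1.23 (SE 0.18, adjusted p = 0.000462). *Fkbp4* was thus called higher with ZnO NPs under both genotype labels. Against WT+ZnO NPs, KO+ZnO NPs had 0 of 15 higher and 1 lower, *Stip1*, the HOP co-chaperone, at -0.57 (SE 0.14, adjusted p = 0.0497). KO against WT had 1 lower, *St13*, another HSP70 cofactor, at -0.69 (SE 0.13, adjusted p = 0.014).

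Receptor coregulators and relatives, 13 genes, showed 4 higher and 1 lower in WT+ZnO NPs against WT (20.8% and 22.1% of all genes), with *Hdac2*, a histone deacetylase, at 0.72 (SE 0.13, adjusted p = 0.00182) and *Smarca4*, the chromatin remodelling ATPase BRG1, at 0.70 (SE 0.14, adjusted p = 0.00308). Between KO+ZnO NPs and KO, *Hdac2* was higher at 0.49 (SE 0.13, adjusted p = 0.0365) and *Ncoa3*, a coactivator, lower at -0.42 (SE 0.12, adjusted p = 0.0392). Of 16 genes of hormone synthesis, transport and turnover, 10 passed the filter on low counts. Of these, 5 were higher and 3 lower in WT+ZnO NPs against WT (20.8% and 22.1% of all genes). Among genes at 5 CPM or more, the 2 largest changes were falls, of *Akr1c14*, a steroid dehydrogenase, at -4.56 (SE 1.00, adjusted p = 0.00446) and of *Abcb1a*, an efflux pump that carries corticosteroids, at -2.35 (SE 0.35, adjusted p = 0.000515). Below that level, *Crhr1* (a receptor of corticotropin-releasing hormone), *Cyp21a1* (steroid 21-hydroxylase) and *Hsd11b2*, whose enzyme inactivates corticosterone and so opposes that of *Hsd11b1*, were called higher, and were named, like *Mc2r*, after their values were seen. *Mc2r*, the receptor of adrenocorticotropic hormone, was called lower (-3.23, SE 0.78, adjusted p = 0.00754), from 7.43 to 10.3 CPM in WT to 0.48 to 1.83 CPM in WT+ZnO NPs. *Hsd11b2* was at 0.168 to 0.297 CPM in WT and 1.12 to 8.86 CPM in WT+ZnO NPs, at a log2 fold change of 3.93 (SE 1.02, adjusted p = 0.0108). *Abcb1a* was higher in KO+ZnO NPs than in WT+ZnO NPs, at 1.59 (SE 0.34, adjusted p = 0.0402). *Srd5a1*, a steroid reductase, was higher in KO than in WT, at 0.93 (SE 0.26, adjusted p = 0.0493), and in WT+ZnO NPs than in WT, at 1.66 (SE 0.26, adjusted p = 0.000675).

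Of 18 inflammatory genes that glucocorticoids repress, 17 were tested. In KO+ZnO NPs against KO, 0 were higher and 3 lower (6.57% and 8.09% of all genes). The one with a mean of at least 5 CPM was *Il1b*, the cytokine interleukin 1 beta, at -3.20 (SE 0.78, adjusted p = 0.0248). It fell beside the macrophage and T cell markers (3 of 3 called lower in each). With ZnO NPs under the WT label, 0 were higher and 4 lower, the latter close to the share of all genes called lower (22.1%), among them *Il1a*, another interleukin 1 gene, at -2.88 (SE 0.76, adjusted p = 0.0112) and *Ccl2*, a monocyte chemokine, at -2.48 (SE 0.71, adjusted p = 0.0166). *Mmp9*, a matrix metalloproteinase, was called higher in KO than in WT, at 3.93 (SE 0.70, adjusted p = 0.00995), and in KO+ZnO NPs than in WT+ZnO NPs, at 4.26 (SE 0.72, adjusted p = 0.029). The part of immune cell numbers in these values was not tested.

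Fasting and PPAR genes, 12 in number, include other targets of the factors that drive *Angptl4*. In WT+ZnO NPs against WT, 0 were higher and 4 lower (20.8% and 22.1% of all genes), among them *Pdk4* at -1.49 (SE 0.30, adjusted p = 0.00271) and *Ucp3*, a mitochondrial uncoupling protein of muscle, at -1.62 (SE 0.48, adjusted p = 0.0196). KO against WT had 0 higher and 3 lower (4.61% and 3.58% of all genes), with *Plin2*, a lipid droplet coat protein, at -1.96 (SE 0.36, adjusted p = 0.0111). Adipocyte markers summed to 1551 to 3139 CPM in KO and 4501 to 6458 CPM in WT (0 of 5 called). Skeletal muscle markers summed to 959.4 to 3391 CPM in KO and 4001 to 5571 CPM in WT. The part of both in these falls was not tested. KO+ZnO NPs had 2 higher and 0 lower against KO and the same numbers against WT+ZnO NPs, *Pdk4* and *Ucp3* in both, where 6.57% and 2.13% of all genes were called higher. *Ucp3* was at 1.78 (SE 0.48, adjusted p = 0.0346) and 2.33 (SE 0.49, adjusted p = 0.0385). Of 12 tested muscle atrophy genes, *Trim63*, a muscle ubiquitin ligase, was higher in KO+ZnO NPs than in KO, at 2.25 (SE 0.48, adjusted p = 0.0162), and *Ctsl*, a lysosomal protease, was lower at -1.79 (SE 0.42, adjusted p = 0.022). Of the same 12, *Bnip3* and *Eif4ebp1*, a translation repressor under mTORC1, were higher against WT+ZnO NPs, the latter at 0.79 (SE 0.11, adjusted p = 0.0205). *Eif4ebp1* was at 116.5 CPM in WT, 63.1 in WT+ZnO NPs, 95.7 in KO and 108.8 in KO+ZnO NPs. Skeletal muscle markers summed to 2178 to 11841 CPM in KO+ZnO NPs and 959.4 to 3391 CPM in KO (1 of 5 called higher), and their part in the rises of *Trim63*, *Ucp3* and *Pdk4* was not tested. *Trim63* and *Fkbp5* were both named by the study from these libraries, so *Trim63* is not independent of the selection. Of 15 clock genes, 1 was higher and 2 lower in WT+ZnO NPs against WT, a smaller share than over all genes (20.8% and 22.1%), with *Per2* at -1.03 (SE 0.30, adjusted p = 0.019) and *Cry2* at -0.40 (SE 0.15, adjusted p = 0.0498). In the other 3 comparisons and the interaction, edgeR called 0 clock genes, with 1 to 3 at an unadjusted p below 0.05 and at most 1 by DESeq2.

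**Figure D5:**
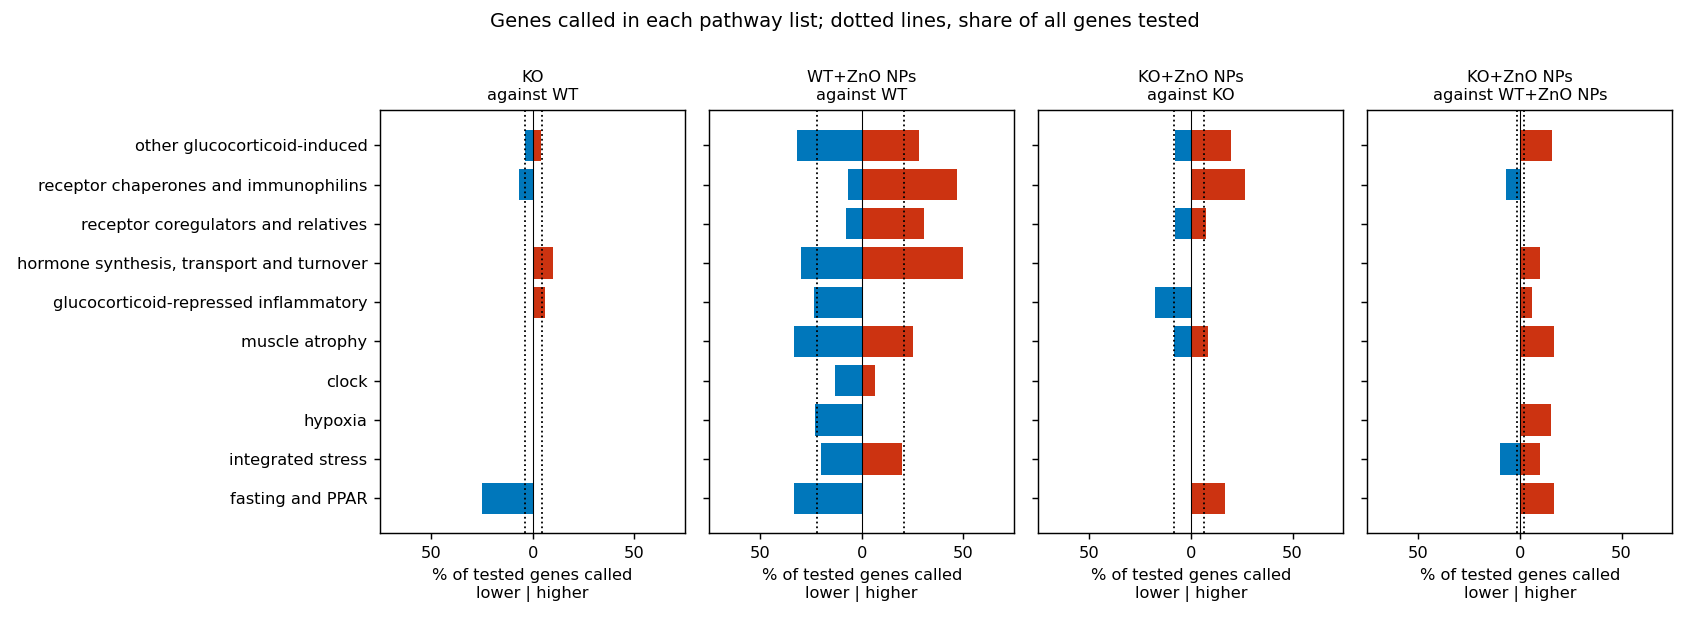
Share of the tested genes of each list (rows) called higher (red, to the right) or lower (blue, to the left) in each comparison (horizontal axes, percent of tested genes). Dotted lines are the shares over all genes tested, which are 20.8% and 22.1% in WT+ZnO NPs against WT and 2.13% and 1.16% in KO+ZnO NPs against WT+ZnO NPs.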

How the data were processed

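RNA from skin was sequenced in 12 libraries, and the authors deposited a table of raw read counts, whole numbers for each gene and library. The study's methods name STAR and HTSeq, while the submitters' processing notes name HISAT2 2.0.5 and mm10 (GRCm38). The use of strand and the annotation release are not given in the sources used here. Genes were named and placed by GENCODE vM21 on GRCm38 (52403 of 52636 IDs matched), and promoter windows came from RefSeq. Groups were read from the labels. Counts were tested with edgeR 4.0.16 in R 4.3.3 by the quasi-likelihood test, with TMM factors, the filter filterByExpr, 1 coefficient per group, 1 fit of all 12 libraries (common dispersion 0.109) and p adjusted by Benjamini-Hochberg over 18822 genes. Standard errors were derived from the F statistic and are approximate. Replicates were further apart than sampling noise allows (chi-square per degree of freedom, 37.4 to 162), so each library was counted as 1 sample.

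The members, the lists and the tests were chosen with earlier results of these data known. Named genes are the 10 members, the 5 genes most like *Fkbp5*, *Cdc42* and, per list and comparison, the 2 called genes with the largest absolute log2 fold change. The latter needed a mean of at least 5 CPM over the 12 libraries. The steps were tested on simulated counts. Alternatives were RLE factors, library size only, no filter, a minimum of 10 counts in each library, a replicate block, the Y-linked class as a covariate or within class, only the groups compared, DESeq2 1.42.0, and each library left out.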

Additional observations from a re-analysis of the deposited data

Results flagged for a closer look

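For *Angptl4* and 13 genes of the lists the change with ZnO NPs differed between the WT and the KO labels. The test was of the interaction in edgeR, with Benjamini-Hochberg adjustment over all genes, where 5.08% were called higher and 3.59% lower. Calls higher and lower were 4 and 1 of 25 further glucocorticoid-induced genes and 1 and 0 of 15 chaperones and immunophilins. Hormone genes had 1 and 0 of 10, muscle atrophy genes 2 and 0 of 12, and hypoxia genes 1 and 0 of 13. Integrated stress genes had 1 and 1 of 10, and fasting and PPAR genes 3 and 0 of 12. The 13 coregulators and relatives, 17 inflammatory genes and 15 clock genes had none called. Some genes are in more than 1 list. *Angptl4* had an interaction of 2.68 on the log2 scale (SE 0.56, adjusted p = 0.0212). It was at 184.2 ± 70.8 CPM in WT, 42.9 ± 4.43 in WT+ZnO NPs, 81.3 ± 23.8 in KO and 121.1 ± 70.6 in KO+ZnO NPs (SD, n = 3), so that the groups given ZnO NPs stood in the reverse order of the vehicle groups.

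Among genes of the lists, *Pdk4* had an interaction of 3.79 (SE 0.43, adjusted p = 0.00186), *Ucp3* of 3.40 (SE 0.68, adjusted p = 0.0182) and *Abcb1a* of 2.45 (SE 0.48, adjusted p = 0.0167). The interaction was 1.65 for *Sult1a1* (SE 0.19, adjusted p = 0.00204), 1.39 for *Bnip3* (SE 0.27, adjusted p = 0.017), 1.07 for *Eif4ebp1* (SE 0.16, adjusted p = 0.00599), 0.88 for *Asns* (SE 0.23, adjusted p = 0.0397) and 0.82 for *St13* (SE 0.19, adjusted p = 0.0282). 3 further genes, outside the rule for naming, had interactions of 2.09 (*Glul*, SE 0.44, adjusted p = 0.022), 1.85 (*Tgm2*, SE 0.38, adjusted p = 0.0203) and 1.53 (*Cpt1a*, SE 0.34, adjusted p = 0.0264). The interaction was negative for *Cdkn1c* (-2.19, SE 0.52, adjusted p = 0.0307) and for *Atf3* (-4.68, SE 1.20, adjusted p = 0.0394). All 3 libraries labelled WT+ZnO NPs held Y-linked transcripts and none of the WT libraries did, and the part of this in the interactions of the list genes was not tested. Single outlying libraries within groups of 3 were not tested.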

How the results depend on the processing

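Calls are at an adjusted p below 0.05 and leave out *Fkbp5* and *Ddit4* in the comparisons they were chosen on and in the interaction. Between KO and WT, 0 of the 10 genes were called, but 1 with the Y-linked class as a covariate (*Angptl4*), 2 with only the groups compared (*Ddit4* and *Sgk1*), 2 with DESeq2 (*Angptl4* and *Ddit4*), and 0 to 1 with single libraries left out. In WT+ZnO NPs against WT, the count of 4 became 2 with the covariate and 2 to 5 with libraries left out, with 2 without WT replicate 2 or replicate 3. In KO+ZnO NPs against KO, the count of 0 of 8 was 0 to 1 with libraries left out, with *Zbtb16* called without KO replicate 1 (1.43, SE 0.40, adjusted p = 0.0473) and *Nr3c1* without the KO+ZnO NPs replicate 3 (-0.54, SE 0.14, adjusted p = 0.0451). In KO+ZnO NPs against WT+ZnO NPs, the count of 0 of 8 became 4 with DESeq2 (*Angptl4*, *Klf9*, *Tsc22d3* and *Zbtb16*), 1 with the replicate block and 0 to 1 with libraries left out, with *Klf9* called without the WT+ZnO NPs replicate 2 and *Angptl4* without the KO+ZnO NPs replicate 3 (1.71, SE 0.42, adjusted p = 0.0367). For the interaction, the count of 1 of 8 was 0 to 1 with libraries left out, with 0 without WT replicate 2 or the WT+ZnO NPs replicate 3. Calls among all genes of the lists rose with DESeq2 from 7 to 23 in KO against WT, from 13 to 26 in KO+ZnO NPs against WT+ZnO NPs and from 13 to 31 for the interaction. The cause was not tested.

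The direction turned only for uncalled log2 fold changes. For KO against WT, *Errfi1* (0.01) was -0.01 with RLE factors, -0.0048 with library size only, -0.01 with DESeq2, -0.18 with the covariate, -0.33 within the Y-linked class and -0.34 to 0.42 with libraries left out. For KO+ZnO NPs against WT+ZnO NPs, *Sgk1* was -0.10 with library size only, -0.01 within the Y-linked class and -0.31 to 0.49 with libraries left out, and *Nr3c1* was -0.09 within the class and -0.05 to 0.40. With libraries left out, *Zbtb16* (-0.70 to 0.30) and *Hsd11b1* (-0.56 to 0.10) turned in KO against WT, and *Tsc22d3* (-0.53 to 0.18) and *Errfi1* (-0.78 to 1.08) in WT+ZnO NPs against WT. So did *Angptl4* (-0.02 to 0.82) and *Hsd11b1* (-1.27 to 0.28) in KO+ZnO NPs against KO, and *Errfi1* in KO+ZnO NPs against WT+ZnO NPs (-0.30 to 1.62) and in the interaction (-0.31 to 1.61). Of all values with a test under the alternatives, 825 kept direction and call, 22 gained a call, 18 lost it and 33 turned. Of those without a test, 119 moved by less than the replicate SD and 3, all of *Ddit4* without the KO+ZnO NPs replicate 2, by more.

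The labels number the replicates, but in no comparison were all correlations of same-numbered libraries' deviations above 0.1 (-0.343 to 0.429 over all, 0.0508 to 0.429 in KO+ZnO NPs against KO), so the numbers were not taken as pairs. With the replicate block, the member counts were 0, 3, 0, 1 and 1 in the 4 comparisons and the interaction, *Errfi1* in KO against WT was -0.05, *Hsd11b1* in WT+ZnO NPs against WT lost its call and *Zbtb16* in KO+ZnO NPs against WT+ZnO NPs gained one (1.45, adjusted p = 0.048). Not every library correlated best with its own number. Precision is limited by 3 mice a group and by genes near 10 CPM, such as *Hsd11b1* in WT+ZnO NPs.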
